A study of Mus musculus with 140 samples.

Results

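The 10 genes described here act in branched-chain amino acid breakdown and were followed in mouse gastrocnemius muscle across the day and after a bout of treadmill exercise. They were chosen by name, as the rows whose Ensembl identifier maps in GRCm38 to Bcat2, Bckdha, Bckdhb, Dbt, Bckdk, Ppm1k, Ivd, Mccc1, Hibch and Hibadh. All 10 were found among the 11461 genes in the files. Leucine, isoleucine and valine are first transaminated by Bcat2 in the mitochondria, and the resulting keto acids are then oxidised by the branched-chain keto acid dehydrogenase complex, the committed step of the pathway. That complex is switched off when the kinase Bckdk phosphorylates it and switched on when the phosphatase Ppm1k removes the phosphate. Skeletal muscle is a major site of the transamination, and separate enzymes then carry each carbon skeleton further, Ivd and Mccc1 for leucine, Hibch and Hibadh for valine.

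Male C57B6/J mice aged 10 to 11 weeks, kept in 12 h of light and 12 h of dark with free access to food, ran on a treadmill for 1 h or, as sham, stood on a stationary one. Treatment began in the early active phase (ZT15, where ZT is hours after lights on) or in the early rest phase (ZT3). Collection of muscle followed at once (0 h) or after 4, 8, 12, 16 or 20 h, which gives 24 groups of phase, treatment and hour. Each mouse gave 1 library of ribosome-depleted total RNA. Tissue taken at 0 h falls at ZT16 in the active-phase arm and at ZT4 in the rest-phase arm. No mouse was left unhandled, so every daily profile below comes from mice that had been handled at one of these times.

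Of 140 labelled samples, 68 exercised and 69 sham libraries are analysed here. There are 18 groups of 6, 5 groups of 5 and 1 group of 4, the rest-phase mice exercised and taken at 0 h. The recovered depth ran from 2.19 to 27.6 M (mega) reads, and the median library had 11.0 M. Each member was read in every library: the lowest count was 16 reads, for Mccc1, which was also the lowest by median. The median library held from 149 reads for Ppm1k to 1733 for Bckdk among the other members. The labelled tissue carried its markers, since all 6 skeletal muscle genes checked were present, with a summed value of 37910 to 91990 per library. All 7 adipocyte genes checked were also present, with a summed value of 156 to 1537, so the pieces held some fat. In whole tissue, fewer cells of a type and less RNA per cell cannot be told apart. Within their groups, 6 libraries had a median correlation below 0.9.

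The members differed widely in level. Levels of different genes are compared here per kilobase of annotated exon, using the values the authors deposited, which are reads scaled to a library size. Bckdk, the inhibiting kinase (chr7:127904082-127910221, + strand), stood at 41.8 ± 11.0 per kb in sham libraries (SD, n = 69) and was above the next member in 69 of 69. Ppm1k, the activating phosphatase (chr6:57506502-57535468, - strand), stood at 2.48 ± 0.72 per kb. The log2 ratio of Bckdk to Ppm1k per kb was 4.05 ± 0.64 in exercised and 4.09 ± 0.63 in sham libraries. The kinase transcript was therefore far above the phosphatase transcript in both sets, and the sets differed by less than their spread.

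The dehydrogenase subunits lay between these 2 regulators. Bckdha and Bckdhb encode the alpha and beta chains of the decarboxylase. Bckdha (chr7:25629946-25658981, - strand) had 11.6 ± 3.2 per kb and Bckdhb (chr9:83925145-84124240, + strand) 11.2 ± 2.6 per kb in sham libraries. Bckdha was the higher of the pair in 35 of 69 libraries, so their order is not set. Dbt, the transacylase core onto which the other subunits assemble (chr3:116513070-116549981, + strand), had 6.60 ± 1.23 per kb. Bcat2, the mitochondrial transaminase (chr7:45570153-45589711, + strand), had 6.43 ± 1.63 per kb, and Dbt was above it in 36 of 69 libraries.

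Among the later enzymes, Ivd, which oxidises isovaleryl-CoA (chr2:118861954-118882909, + strand), had 8.91 ± 3.42 per kb in sham libraries. Mccc1, the biotin-carrying subunit of methylcrotonyl-CoA carboxylase (chr3:35959312-36000678, - strand), had 1.01 ± 0.25 per kb and was below Ppm1k in 69 of 69 libraries. Hibch, which frees 3-hydroxyisobutyrate from its CoA ester (chr1:52844929-52920986, + strand), had 8.70 ± 2.38 per kb. Hibadh, which oxidises that product (chr6:52546228-52640389, - strand), had 10.49 ± 2.14 per kb. The order depends on the length used. Per kilobase of the APPRIS principal transcript, Hibadh had 58.5 ± 12.0, Bckdk 45.3 ± 11.9 and Hibch 28.8 ± 7.9, because the annotated exons of Hibadh total 10179 bases and its principal transcript 1825. Ppm1k at 2.68 ± 0.78 and Mccc1 at 4.49 ± 1.1 were the lowest members by that length too, in the other order.

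**Figure D1:**
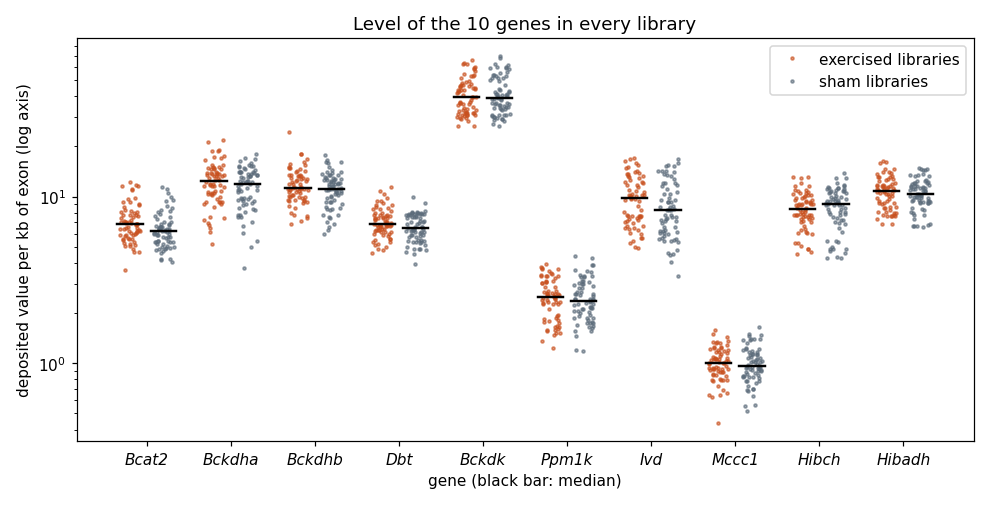
Deposited value per kilobase of annotated exon (log axis) for each of the 10 genes, with exercised libraries (68 points, left) and sham libraries (69 points, right) and black bars at the medians. Bckdk lies above every other gene, Ppm1k and Mccc1 lie below, and the ranges of exercised and sham libraries overlap for each gene.

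Promoter windows from RefSeq, 250 bases before to 50 after a start site, were found for 9 of the 10 members, as 11 windows. Dbt had no window, so its promoter was not searched and nothing below covers it. They were searched on both strands for 5 motifs: the E-box CACGTG, the D-boxes TTATGTAA and TTACGTAA, the nuclear-receptor sequence AAGGTCA and the CACCC box CCACCC bound by Kruppel-like factors. The last was searched because Klf15, a member of that family, is known to regulate amino acid breakdown in muscle. CCACCC was found in windows of Bcat2, Bckdhb, Ivd and Mccc1, 4 of 9 members. Counted by window, it was in 4 of the 11 member windows, against 31.5% of all 32851 windows. Bcat2 and Bckdhb had 2 windows each, with CCACCC in 1 of them. For Bcat2 the window without it was chr7:45571029-45571328. The other 4 motifs were in no member's window and in 7.15%, 0.94%, 0.12% and 4.72% of all windows, in the order given. The windows of Bcat2 (chr7:45569903-45570202, + strand) and Ivd (chr2:118861744-118862043, + strand), in build GRCm38.p6, are shown because these genes open the pathway and gave the largest estimate after exercise. Capitals mark CCACCC or its reverse complement.
Bcat2: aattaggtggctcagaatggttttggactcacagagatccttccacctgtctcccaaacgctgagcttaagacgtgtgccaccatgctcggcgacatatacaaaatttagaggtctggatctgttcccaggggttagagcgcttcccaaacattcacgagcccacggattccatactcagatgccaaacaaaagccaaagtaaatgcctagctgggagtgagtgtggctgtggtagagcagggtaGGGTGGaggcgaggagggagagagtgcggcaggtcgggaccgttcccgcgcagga
Ivd: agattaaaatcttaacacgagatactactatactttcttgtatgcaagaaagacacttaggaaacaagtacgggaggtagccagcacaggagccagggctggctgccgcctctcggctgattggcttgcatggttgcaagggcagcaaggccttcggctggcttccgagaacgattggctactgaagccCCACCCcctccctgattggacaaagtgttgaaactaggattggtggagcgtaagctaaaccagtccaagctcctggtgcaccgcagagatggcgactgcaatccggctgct
The match begins at base 246 of 300 in the Bcat2 window and at base 190 in the Ivd window. A match describes the letters and shows no binding.

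Dbt was the member with a daily rhythm in sham muscle. Rhythms were fitted on log2(value + 0.5) with limma, as sine and cosine waves with a period of 24 h, with p-values adjusted by the Benjamini-Hochberg method over all genes. The amplitude is the distance from the fitted midline to the peak. In sham mice of the rest-phase arm, Dbt values at ZT0 had a lowest of 17.2, a median of 25.3 and a highest of 26.9. At ZT4 they were 16.2, 18.5, 19.2, 20.6 and 22.1, and at ZT8 the lowest was 15.1, the median 18.1 and the highest 23.5. Dbt was thus low in the morning and midday of the light period.

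At ZT12 Dbt values in the same arm were 15.5, 19.6, 20.2, 20.9 and 25.1. At ZT16 the lowest was 17.9, the median 25.6 and the highest 26.8, and at ZT20 they were 20.99, 25.3 and 33.5. The 6 values at ZT20 overlapped those at ZT8, but 4 of the 5 values at ZT4 lay below the lowest at ZT20. The fitted amplitude was 0.24 ± 0.06 on the log2 scale (SE), with a peak at ZT19.7 ± 1.0, and passed in limma (adjusted p = 0.042). Over all genes, 0.942% passed in this series. The call is narrow: it was lost in 20 of 34 fits that left out 1 sham library of this arm, where the adjusted p ran from 0.019 to 0.118 over all 34. The fits that lost it, at adjusted p of 0.051 to 0.118, left out replicates 4, 5 or 6 at ZT4, replicates 1, 3, 5 or 6 at ZT8, replicate 1 at ZT12, replicates 2, 3, 5 or 6 at ZT16, replicates 1, 3, 4, 5 or 6 at ZT20, or replicates 3, 4 or 5 at ZT0.

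With both sham arms pooled, Dbt had an amplitude of 0.17 ± 0.04 and a peak at ZT19.1 ± 0.9 (limma, adjusted p = 0.0147), against 3.99% of all genes passing. Pooled over arms, Dbt averaged 24.9 ± 3.8 at ZT20 (SD, n = 12) and 19.1 ± 3.0 at ZT4 (SD, n = 11). This call held in each of the 69 fits without 1 sham library (adjusted p 0.0055 to 0.0369). It was lost without replicate number 1, 3 or 5 over all groups, at adjusted p of 0.123, 0.162 and 0.052.

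The exercised mice, which are separate animals, gave a Dbt profile of like timing in the rest-phase arm. In the rest-phase arm the exercised series had an amplitude of 0.27 ± 0.06 with a peak at ZT18.9 ± 0.8 (limma, adjusted p = 0.0087; 1.65% of all genes passed). In the active-phase arm the amplitude was 0.11 ± 0.06 with a peak at ZT17.0 in exercised mice (adjusted p = 0.56; 4% of genes passed) and 0.11 ± 0.06 with a peak at ZT17.9 in sham mice (adjusted p = 0.64; 2.48% passed). The 4 fitted peaks lay between ZT17.0 and ZT19.7, but both active-phase series missed the threshold, so their peaks do not establish a timing. The sham arms, active minus rest, were not shown to differ in the Dbt rhythm (adjusted p = 0.78, test of the difference of the terms). In the exercised rest-phase series the call was lost without replicate 3 or 6 over all groups, at adjusted p of 0.115 and 0.116.

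Bcat2, at the first step, had the next smallest p among the members in sham mice of the rest-phase arm. In the active-phase arm the highest Bcat2 mean in sham mice was 30.9 ± 7.7 at ZT16 (SD, n = 6), and the amplitude was 0.17 ± 0.08 with a peak at ZT17.5 (limma, adjusted p = 0.48). In the rest-phase arm the sham means were 30.1 ± 11.3 at ZT0 (n = 6), 28.9 ± 6.3 at ZT4 (n = 5), 21.03 ± 2.98 at ZT8 (n = 6), 20.96 ± 3.94 at ZT12 (n = 5), 21.6 ± 2.4 at ZT16 (n = 6) and 27.9 ± 8.0 at ZT20 (n = 6). The amplitude there was 0.28 ± 0.08 with a peak at ZT0.0 ± 1.1, and it missed the threshold (limma, adjusted p = 0.14). The difference of the arms' Bcat2 rhythms did not pass (limma, adjusted p = 0.56), where 0.0524% of all genes passed. Its unadjusted p was under 0.05, as it was for 6.41% of all genes. When the transcript-length slope of each library, described below, was added as a covariate, the rest-arm rhythm of Bcat2 passed (adjusted p = 0.0276).

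**Figure D2:**
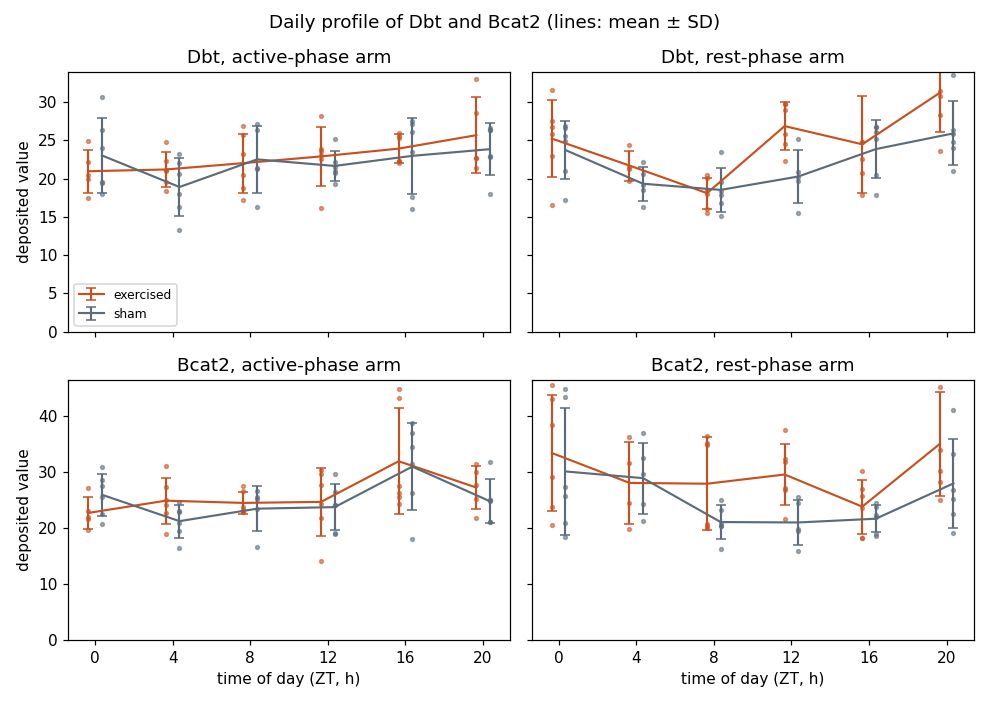
Deposited values of Dbt (top) and Bcat2 (bottom) against time of day in the active-phase arm (left) and the rest-phase arm (right), with exercised and sham mice as points and lines at mean ± SD of 4 to 6 libraries. In the rest-phase arm Dbt is lowest at ZT4 to ZT8 and highest at ZT20 in sham mice, and exercised mice show a like course.

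The other 8 members gave no rhythm past the threshold in any of the 4 series. After Bcat2 the smallest adjusted p among them was that of Mccc1 in exercised mice of the rest phase (amplitude 0.23 ± 0.08, peak at ZT3.0, adjusted p = 0.32), which passed with the length slope and replicate strata in the model (adjusted p = 0.045). Ppm1k had an amplitude of 0.28 ± 0.10 and a peak at ZT19.0 in the rest-phase sham series (adjusted p = 0.34). Ivd had an amplitude of 0.30 ± 0.12 there with a peak at ZT19.8 (adjusted p = 0.53), and Bckdk 0.20 ± 0.08 in the active-phase sham series with a peak at ZT21.4 (adjusted p = 0.42). Hibch, Bckdhb and Mccc1 had pooled sham amplitudes of 0.03, 0.02 and 0.04. Pooled over the sham arms, Ivd did not pass in the main fit but passed in 3 of 18 alternative fits. With the length slope as a covariate its adjusted p there was 0.0293 (limma). Over the members the median amplitude in pooled sham mice was 0.10, against 0.09 over all genes. An unadjusted p under 0.05 was found for 0 members in the active-phase and 3 in the rest-phase sham series, and for 2 in the pooled series, against 12.6%, 9.57% and 14.5% of all genes. The edgeR test called 0 members in the active-phase, 1 in the rest-phase and 1 in the pooled sham series, as limma did.

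Sham mice of the active-phase arm were then set against those of the rest-phase arm at the same clock hour, with 1 F test over the 6 hours. By limma 0 of 10 members passed, and edgeR called 0 as well, where 0.768% of all genes passed. At an unadjusted p under 0.05 there were 4, Bcat2, Bckdk, Ppm1k and Hibadh, with adjusted p of 0.18 to 0.19. Over all genes 24.1% had an unadjusted p under 0.05 in this test.

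Exercise changed no member past the threshold. In the active phase 0 of 60 tests (10 genes by 6 hours) passed in limma, and 5 had an unadjusted p under 0.05. In the rest phase the counts were again 0 and 5 of 60. Over all genes and hours 0.201% of tests passed in the active phase and 0.0713% in the rest phase, and 9.68% and 4.93% had an unadjusted p under 0.05. The edgeR and DESeq2 tests on recovered reads called 0 members in either phase. Joint tests over the 6 hours called 0 of 10 members in each phase by limma and by edgeR, with 0.698% of genes called in the active and 0.244% in the rest phase. At an unadjusted p under 0.05 the joint test had 0 members in the active phase and 1, Bcat2, in the rest phase (adjusted p = 0.90), against 13.2% and 4.03% of all genes.

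The smallest p for exercise in the rest phase was that of Dbt at 8 h. Dbt values were 22.3, 24.5, 25.8, 28.96, 29.7 and 29.7 in exercised mice, against 15.5, 19.6, 20.2, 20.9 and 25.1 in sham mice. Exercised values lay above 4 of the 5 sham values, and the highest sham mouse overlapped them. The log2 difference was 0.41 ± 0.15 (SE; limma, adjusted p = 1.00), and the adjusted p ran from 0.15 to 1.00 over 20 alternatives. Bcat2 had at the same hour 21.6, 26.8, 27.1, 31.8, 32.3 and 37.5 in exercised mice and 15.8, 19.5, 19.7, 24.4 and 25.5 in sham mice. Here 5 of 6 exercised mice were above every sham mouse, and the log2 difference was 0.48 ± 0.19 (adjusted p = 1.00).

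In the active phase the smallest p was that of Ivd at 0 h. Ivd values in exercised mice were 38.6, 42.2, 63.2, 66.8, 75.8 and 78.4, against 33.3, 33.9, 34.1, 39.5, 42.6 and 42.8 in sham mice. Of the exercised mice 4 lay above every sham mouse. The log2 difference was 0.64 ± 0.28 (limma, adjusted p = 0.19). In the rest phase Ivd had 36.6, 53.6, 59.1 and 59.9 in exercised mice and 22.3, 26.2, 32.04, 34.6 and 40.4 in sham mice at 0 h, a difference of 0.75 ± 0.33 (adjusted p = 0.30). Fitted with its own groups alone, this rest-phase difference passed (adjusted p = 0.0030), as did 31.9% of all genes in that fit.

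The length slope moved with the Ivd difference at 0 h. It averaged -0.01 ± 0.19 in exercised and -0.16 ± 0.08 in sham mice of the active phase (SD, n = 6 each). In the rest phase it averaged -0.01 ± 0.03 in exercised (n = 4) and -0.18 ± 0.06 in sham mice (n = 5). There the exercised libraries ran from -0.03 to 0.03 and the sham libraries from -0.25 to -0.11, without overlap. An effect of exercise and the slope therefore cannot be told apart at 0 h of the rest phase. With the slope as a covariate the Ivd difference was 0.30 ± 0.18 in the active phase (adjusted p = 0.47) and 0.34 ± 0.21 in the rest phase (adjusted p = 0.79). For Dbt and Bcat2 in the rest phase, the 8 h differences were 0.40 ± 0.14 and 0.49 ± 0.18 with it, close to their values without it.

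The remaining tests with an unadjusted p under 0.05 were spread over steps and directions. Among the subunits, Bckdha averaged 25.5 ± 2.5 in exercised and 18.4 ± 6.9 in sham mice at 0 h in the active phase (log2 difference 0.56 ± 0.25, adjusted p = 0.19). For the phosphatase Ppm1k at 0 h of the rest phase, exercised mice had 10.7, 15.2, 18.7 and 18.8 and sham mice 9.38, 10.50, 10.54, 10.7 and 11.7 (0.53 ± 0.26, adjusted p = 0.32). Mccc1 had a difference of 0.43 ± 0.19 at 8 h (active phase, adjusted p = 0.20) and of -0.43 ± 0.18 at 12 h (rest phase, adjusted p = 0.72). In the valine branch, Hibch had 0.49 ± 0.24 at 4 h (adjusted p = 0.53) and Hibadh -0.37 ± 0.18 at 8 h (adjusted p = 0.20), both in the active phase. With the length slope as a covariate, several of these moved by more than 1.5 times: Hibadh to -0.06 ± 0.10, Hibch to 0.23 ± 0.10, active-phase Mccc1 to 0.19 ± 0.16 and Ppm1k to 0.26 ± 0.20. Bckdha was then 0.47 ± 0.25 and rest-phase Mccc1 -0.30 ± 0.15. For Ppm1k, at 0 h of the rest phase, slope and exercise cannot be told apart.

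Rest-phase Hibch at 0 h was the one case among 120 in which the groups did not overlap. Its values were 44.2, 50.3, 56.3 and 57.6 in exercised mice, against 61.5, 64.1, 65.9, 68.1 and 78.1 in sham mice. Over all genes the groups did not overlap in 4.09% of rest-phase tests and 0.665% of active-phase tests. These shares pool the 6 hours, and the share at 0 h alone is not given. At 0 h of the rest phase 15% of all genes had an unadjusted p under 0.05 in limma, against 4.93% over the 6 hours. The log2 difference was -0.37 ± 0.27 (adjusted p = 0.43). With the slope in the model, described below, it was 0.01 ± 0.11, but slope and exercise cannot be told apart at this hour of the rest phase. Bckdk showed no unadjusted p under 0.05 at any hour, and its 12 estimates ran from -0.31 to 0.14. Bckdhb was likewise without one, with estimates from -0.30 to 0.30. The 95% confidence intervals over the 12 tests reached from -0.73 to 0.54 for Bckdk and from -0.41 to 0.69 for Dbt, so changes of those sizes lie within the intervals.

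**Figure D3:**
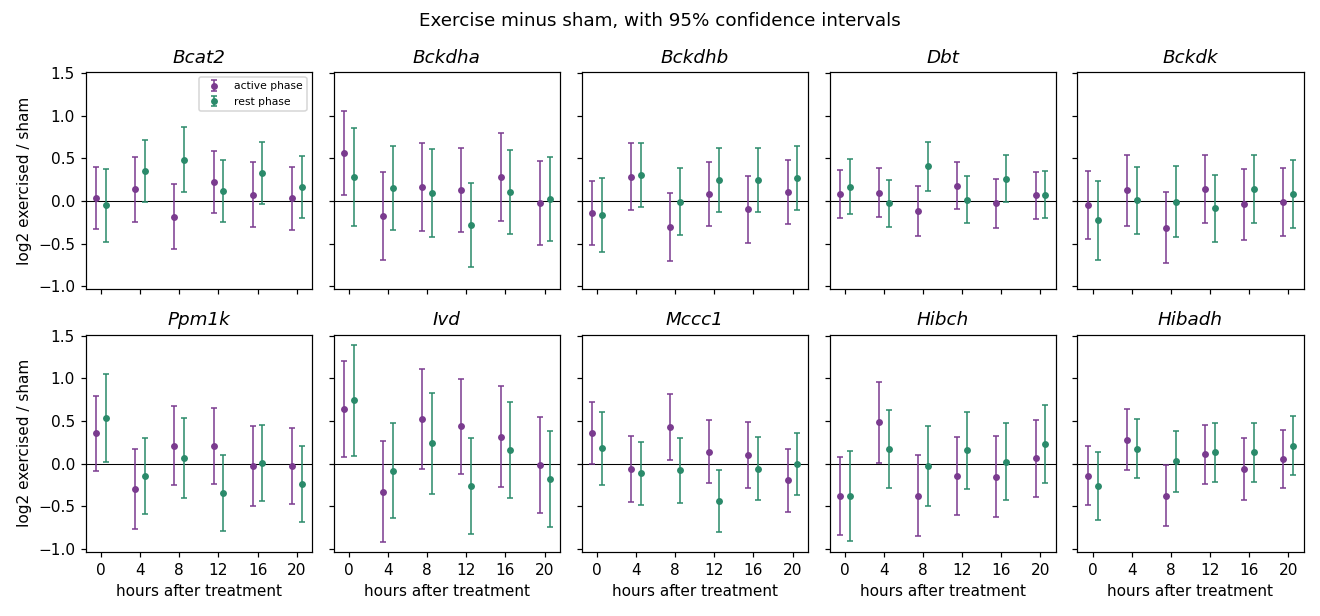
Log2 difference of exercised and sham mice at each hour after treatment for each gene, in the active phase and the rest phase, with 95% confidence intervals from limma. The intervals that leave out 0 are few and fall in both directions, and none passed after adjustment over all genes.

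The effect of exercise was not shown to differ between the phases for any member. Of 60 interaction tests, active-phase effect minus rest-phase effect, 0 passed in limma, edgeR or DESeq2, and 0% of tests passed over all genes. An unadjusted p under 0.05 was found in 3 of the 60, against 2.26% of tests over all genes. At 8 h the interaction was -0.52 ± 0.21 for Dbt (adjusted p = 0.74) and -0.67 ± 0.27 for Bcat2 (adjusted p = 0.74). At that hour in the active phase, Dbt values were 17.4, 19.9, 20.4, 22.1 and 24.9 in exercised mice, against a lowest of 18.02, a median of 21.8 and a highest of 30.6 in sham mice, and the groups overlapped. Mccc1 at 12 h had an interaction of 0.58 ± 0.26 (adjusted p = 0.69). A changed rhythm after exercise was found for 0 of 10 members in each phase by limma and edgeR, with 0% of all genes passing in either phase. None of the 10 had an unadjusted p under 0.05 in either phase, against 1.38% of all genes in the active and 1.66% in the rest phase.

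Much of the spread between mice of one group ran along a property of the library. The length slope is the slope, over 10801 protein-coding genes, that relates how far each gene lies from its overall mean in a library, in log2 units, to log2 exon length, and it ran from -0.29 to 0.41. Over the 68 exercised and 69 sham libraries, each taken as its deviation from its group mean, Hibch followed the slope with Pearson r = -0.92 and Spearman rho = -0.91. Ivd followed it in the opposite direction (r = 0.78, rho = 0.78). Both permutation p-values within groups were 1e-05, the smallest that 100000 permutations can give (adjusted 1.4e-05 over 10 relations). Without the 2 libraries farthest on the slope, r was -0.91 for Hibch and 0.77 for Ivd. Within replicate numbers 1 and 2, 3 and 4, and 5 and 6, r ran from -0.96 to -0.91 for Hibch and from 0.74 to 0.85 for Ivd.

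The members split into those that fell and those that rose along the slope. Hibadh (r = -0.86), Bckdhb (r = -0.76), Bckdk (r = -0.69) and Bcat2 (r = -0.38) went with Hibch, and Ppm1k (r = 0.67), Mccc1 (r = 0.60) and Bckdha (r = 0.23) with Ivd. All of these passed the permutation test after adjustment (0.0155 for Bckdha, at most 3.8e-05 for the rest). The share of all genes that follow the slope was not computed, so the relation is not shown to be particular to the members. Dbt did not (r = 0.12, rho = 0.13, permutation p = 0.21, adjusted p = 0.21). By annotated exon length, on which the slope is built, these members did not sort: Hibadh (10179 bases) and Hibch (6059) fell, while Bckdha (1899) rose. By the length of the principal transcript the members that followed the slope did sort, except for Bckdk. Principal transcripts were 1472 to 1830 bases for Bckdhb, Bcat2, Hibadh and Hibch, which fell, and 3405 for Bckdk, which fell as well. They were 1899, 2455, 3665 and 5560 for Bckdha, Mccc1, Ivd and Ppm1k, which rose. That of Dbt, which was not shown to follow the slope, was 3301, between those of Mccc1 and Ivd. What sets the slope of a library was not tested.

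**Figure D4:**
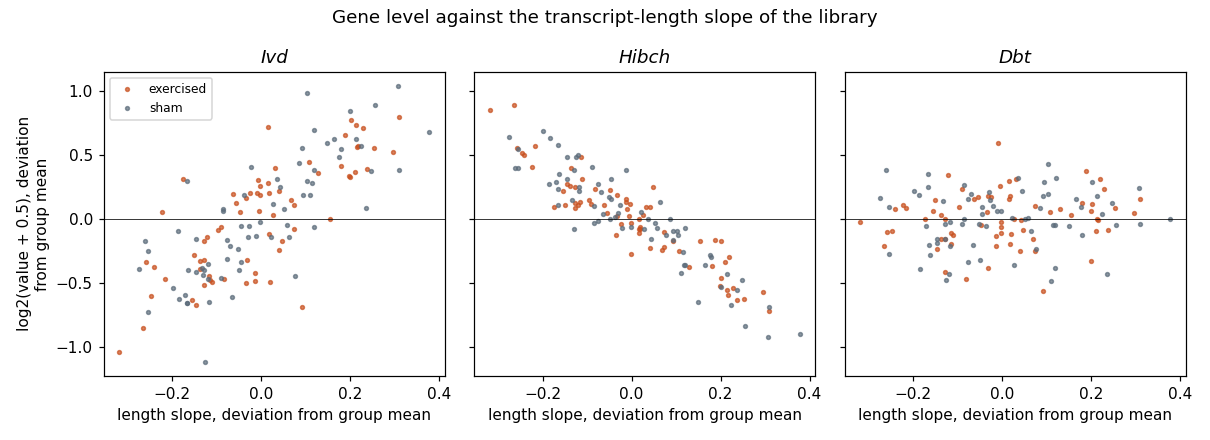
Deviation from the group mean of log2(value + 0.5) against the deviation of the length slope, for Ivd, Hibch and Dbt, with 1 point per library (68 exercised, 69 sham). Ivd rises with the slope (r = 0.78), Hibch falls (r = -0.92) and Dbt shows little relation (r = 0.12).

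How the members moved with each other depended on that property. Of the 45 pairs, 37 were correlated over libraries past an adjusted p of 0.05 (permutation within groups), 23 positively and 14 negatively. With the slope removed from both genes 33 pairs passed, 26 positively and 7 negatively, and 17 pairs changed sign. The share of passing pairs among other genes was not computed, so neither count is shown to be particular to the members. The kinase Bckdk and the decarboxylase chain Bckdha had r = 0.37 and, with the slope removed, 0.75. Bcat2 and Ivd had r = 0.09 and then 0.66, and Bckdk and Ivd had r = -0.31 and then 0.51. Hibch and Hibadh, consecutive in valine breakdown, had r = 0.83 and then 0.21. Bckdha and Bckdhb, the 2 chains of one decarboxylase, were negatively correlated both ways (r = -0.32, rho = -0.37, then r = -0.24). For that pair r was -0.35 without the 2 libraries farthest from the median and -0.42 to -0.34 within replicate numbers.

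**Figure D5:**
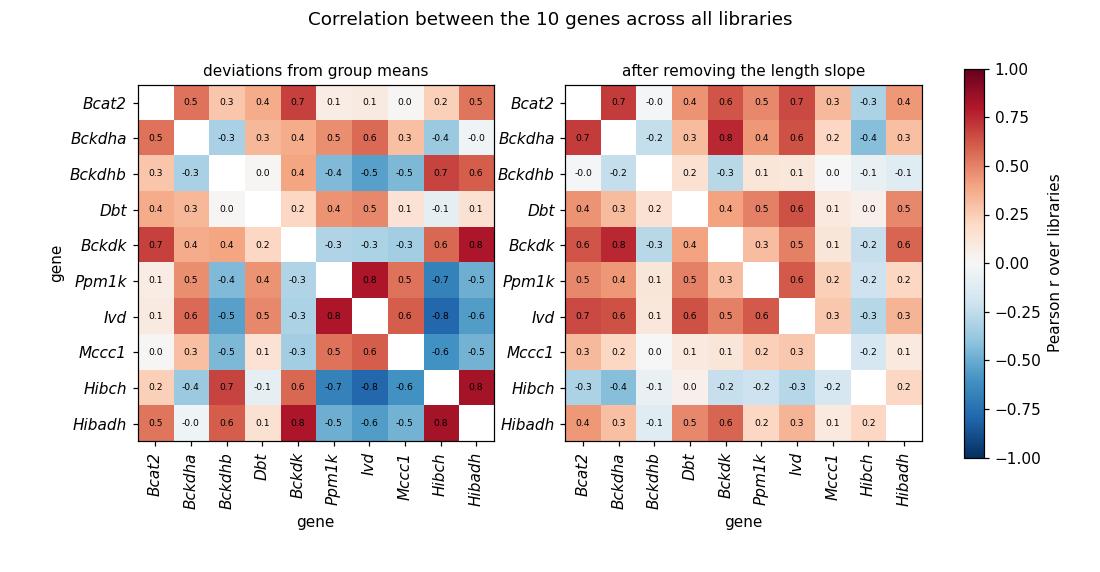
Pearson correlation between each pair of the 10 genes across all libraries, from deviations from group means (left) and after removal of the length slope (right). The block of negative values between Ivd, Ppm1k, Mccc1 and Hibch, Hibadh, Bckdhb on the left is weaker or gone on the right, while Bcat2, Bckdha, Bckdk and Ivd are positively correlated there.

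The rest of the pathway also gave few calls. Of 16 other enzymes of branched-chain amino acid breakdown measured, 0 passed in any exercise contrast, joint test, interaction or rhythm in limma. In the single-hour exercise tests 8 of their 192 had an unadjusted p under 0.05, and edgeR and DESeq2 called 0. Of 5 transporters, 6 regulators and 10 genes of the pyruvate dehydrogenase complex, 0 passed in limma in those tests, with 8 of 60, 13 of 72 and 15 of 120 at an unadjusted p under 0.05, where the shares over all genes were those given above, 9.68% in the active and 4.93% in the rest phase. Among the regulators edgeR called Ppargc1a (active phase, 8 h, adjusted p = 0.0212), and DESeq2 called it (adjusted p = 0.0045) and also, at 0 h, the lipid-sensing nuclear receptor Ppard (adjusted p = 0.0372). Of 10 genes of mitochondrial content 0 passed in those tests in limma, edgeR or DESeq2, with 17 of 120 at an unadjusted p under 0.05. These 17 fell at 0 h (6 in the active and 6 in the rest phase, where 21.7% and 15% of all genes had such a p) and at 8 h in the active phase (5, against 24.5%). Ppargc1a, a coactivator of mitochondrial genes, passed the joint test in the active phase (adjusted p = 0.00102). Its value at 8 h was 42.3 ± 17.3 in exercised (SD, n = 5) and 14.9 ± 1.5 in sham mice (n = 6), a log2 difference of 1.39 ± 0.29 that just missed the threshold (adjusted p = 0.055). Klf15 averaged 27 ± 4.8 in exercised (n = 4) and 16.4 ± 3.5 in sham mice (n = 5) of the rest phase at 0 h (0.71 ± 0.25, adjusted p = 0.30). Also in that phase, at 8 h, where Dbt and Bcat2 had their smallest p, Klf15 averaged 29.1 ± 6.5 in exercised (n = 6) and 19.4 ± 4.0 in sham mice (n = 5; 0.57 ± 0.22, adjusted p = 1.00).

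Among the transporters and the genes of the pyruvate dehydrogenase complex, some did have a daily rhythm in sham mice. Over the 2 arms limma called 1 of 10 transporter tests and 3 of 20 tests of that complex. With the arms pooled it called 2 of 5 transporters and 1 of 10 genes of the complex. For the regulators the counts were 0 of 12 and 0 of 6. Over all genes 2.48% passed in the active-phase arm, 0.942% in the rest-phase arm and 3.99% pooled. Pdk4, the kinase that inhibits the homologous pyruvate dehydrogenase complex as Bckdk inhibits this one, had an amplitude of 0.68 ± 0.16 with a peak at ZT21.9 in the active-phase arm (limma, adjusted p = 0.0116) and of 0.91 ± 0.16 with a peak at ZT6.5 in the rest-phase arm (adjusted p = 0.00015). The arms' rhythms of Pdk4 differed (adjusted p = 7.7e-05). Pdp1, a phosphatase of that complex, had 0.40 ± 0.07 with a peak at ZT10.7 in the active-phase arm (adjusted p = 0.00027). The glutamine carrier Slc1a5 had 0.46 ± 0.09 with a peak at ZT9.9 there (adjusted p = 0.00053), and Slc7a8, a carrier of large neutral amino acids, had 0.27 ± 0.07 with a peak at ZT12.7 in pooled sham mice (adjusted p = 0.0333). Klf15 had a peak at ZT16.0 in exercised mice of the active phase (amplitude 0.47 ± 0.09, adjusted p = 0.00026) and at ZT15.0 in the sham mice (0.32 ± 0.09, adjusted p = 0.056).

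Markers of other cell types were set beside these results. Over 8 marker lists, 0 of 468 single-hour exercise tests passed in limma, edgeR or DESeq2, and 34 had an unadjusted p under 0.05. At 8 h in the active phase, the hour of the Mccc1, Hibadh and Ppargc1a differences, all 5 endothelial markers had an unadjusted p under 0.05 with a median log2 difference of 1.10, as had 3 of 7 adipocyte markers, whose list had a median of -0.73. The summed endothelial value there ran from 63.96 to 225 in exercised mice and from 65.4 to 100.97 in sham mice, with medians of 176 and 69.3. The summed adipocyte value ran from 173 to 579 in exercised mice and from 385 to 1018 in sham mice. Over all genes 24.5% had an unadjusted p under 0.05 at that hour. The length slope at that hour averaged 0.12 ± 0.21 in exercised (SD, n = 5) and -0.08 ± 0.09 in sham mice (n = 6). The part of these markers in the differences was not tested. Of 7 adipocyte markers, 4 (Adipoq, Cfd, Cidec and Plin1) had a rhythm in pooled sham mice. In the rest-phase sham series, in which Dbt passed, the summed adipocyte value ran from 493 to 1021 at ZT4, where Dbt was low, from 198 to 1029 at ZT8 and from 232 to 498 at ZT20, where Dbt was high. Its median was 664, 456 and 368 at those times, so the sum at ZT4 lay almost wholly above that at ZT20, opposite to Dbt between these hours. At the other hours its median differed less: 446 at ZT12, where Dbt was low, and 429 at ZT16 and 394 at ZT0, where Dbt was high. Its part in the Dbt rhythm was not tested.

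By group means over the 24 groups, the genes outside the 10 whose profile was most like the mean of the members were Gcdh (Pearson r = 0.90), Csnk2b (0.86), Arl8b (0.86), Mrpl38 (0.85) and Acadsb (0.84). Gcdh oxidises glutaryl-CoA from lysine and tryptophan, and Acadsb is the short branched-chain acyl-CoA dehydrogenase of isoleucine breakdown. The genes most like Bcat2 alone were Gcdh (0.88), Selenoo (0.85), Psmc5 (0.84), Isoc2a (0.82) and Fuz (0.82). These are the highest values of a search over all named genes, and the group means share libraries with differing length slopes.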

How the data were processed

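Muscle RNA was measured in 68 exercised and 69 sham libraries of 24 groups. The submitters' processing notes name, for the authors' steps, STAR 2.5.3a, featureCounts 1.5.2, edgeR 3.2.23, cutadapt 1.16, Trim Galore 0.4.3, FastQC 0.11.5 and the mm10 (GRCm38) build. Which strand setting, gene filter and annotation release they used is not given in the sources used here. Several members overlap antisense or pseudogene annotations, so reads from a partner could be included. The authors deposited 1 normalized signal value per gene and library, scaled to a library size, and sums per library ran from 0.633 to 1.90 M (mega). Within 0.05 read, 100% of values in every library were whole multiples of the worth of 1 read, so reads could be recovered, from 2.19 to 27.6 M per library. Replicates are separate mice as labelled. No library was identical to another (highest correlation 0.993).

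Log2(value + 0.5) was fitted with limma 3.58.1 in R 4.3.3 (trend, robust moderation), all 24 groups in one model, and rhythms with a 24 h cosine and sine for each of 4 series. Because the values are not counts, edgeR 4.0.16 and DESeq2 1.42.0 ran on the recovered reads as alternatives only. P-values were adjusted by Benjamini-Hochberg over 11461 genes within a test, with 0.05 as the threshold. A fold change on this scale understates the change of low genes. Symbols, positions and lengths came from GENCODE for GRCm38. Correlations between libraries used deviations from group means, 100000 permutations within groups and Python 3.11.15 with NumPy 2.4.6. Fitting code was tested on simulated data.

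The members and gene lists were chosen with earlier results of these data known, and so were the rules for naming. Values per library are given for members past the threshold and otherwise for the smallest p in each phase; values of further members were chosen after they were seen. Other pathway genes are named where they passed, with Klf15. Likeness left out predicted Gm and Rik names. Bcat1, Slc7a5, Sesn2 and Pdk3 were not analysed here. Leaving out single sham libraries, the rhythm difference of the arms and the correlations with the length slope were added after seeing the data.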

Additional observations from a re-analysis of the deposited data

Results flagged for a closer look

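Within groups, 11 of 240 combinations of gene and group (4.58%) held a library far from the others by Dixon's test on the log2 scale. Chance flags about 1 in 20 such groups. No explanation is weighed.

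In exercised mice of the active phase, Mccc1 was low in replicate 6 at 16 h (9.76, others 12.8 to 14.7), Bckdhb was high in replicate 3 at 20 h (32.4, others 16.6 to 20.7), and Bckdk was high in replicate 5 at 20 h (164.8, others 104.3 to 122.4). Bckdk was low in replicate 2 at 4 h (116.9, others 155.8 to 171.7). In sham mice of the active phase, Hibadh was low in replicate 2 at 12 h (67.8, others 93.4 to 106.2) and Bcat2 in replicate 1 at 16 h (16.5, others 23.3 to 26.5).

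In exercised mice of the rest phase, Hibadh was low in replicate 2 at 0 h (87.8, others 113.4 to 117.9) and Mccc1 high in replicate 4 at 4 h (17.4, others 9.69 to 11.7). In sham mice of the rest phase, Bckdha was low in replicate 4 at 12 h (10.3, others 21.95 to 26.8). At 8 h Mccc1 was high in replicate 1 (15.2, others 8.94 to 10.1) and Hibch in replicate 4 (59.9, others 48.7 to 51.3). These last libraries are among the sham mice against which Dbt and Bcat2 were compared at that hour.

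The daily rhythm of Pdk4 differed between the sham arms by test: the difference of the cosine and sine terms, active minus rest, had a size of 1.44 ± 0.22 on the log2 scale (limma, adjusted p = 7.7e-05).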

How the results depend on the processing

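The 0 members changed by exercise, with 0 joint effects and 0 interactions, held in edgeR and, for single hours and interactions, DESeq2, under both other pseudocounts, a minimum mean value of 5, relative log expression scaling, the length slope, the slow-fibre score and the replicate strata. Array weights, which weight each library by its fit, gave 13 of 60 in the active phase, 10 of 60 in the rest phase, 8 interactions, 9 and 8 joint effects in the active and rest phase, and 7 members differing between sham arms; over all genes they called 20.7%, 13.7%, 8.55%, 68.8%, 54.8% and 57.1% in the same order. They also called 5067 genes in all at 8 h in the active phase, against 0, and 6212 at 20 h in the rest phase, against 0. The cause was not tested. Own groups alone gave 3 in the rest phase (Hibch, Ivd and Ppm1k at 0 h), where 31.9% of all genes passed at that hour and 5.32% of tests over the 6 hours. Leaving out 1 replicate number gave 0 to 3 members changed in the active phase, the highest without replicate 6 (Hibadh, Ivd and Mccc1 at 8 h; 4.79% of all tests), and 0 to 2 joint effects in the active phase (2 without replicate 6, against 8.16% of genes). Without the 6 libraries of low correlation 1 joint effect (Ivd) passed there, against 5.52% of genes.

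Rhythmic members in sham mice numbered 0 in the active arm, 1 in the rest arm and 1 pooled. They were 0, 2 and 2 with the length slope (6.87%, 3.33% and 13% of all genes), 1, 2 and 2 with the slope and strata (8%, 4.35% and 15.8%), and 1, 5 and 3 with array weights (12.1%, 33.6% and 28.5%). Leaving out 1 replicate number gave 0 to 1 in the rest arm (0 without 1, 3, 4, 5 or 6) and 0 to 1 pooled.

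Same-numbered exercised and sham libraries correlated with r from -0.75 to 0.89 (median 0.14; 36 of 66 over 0.1). Libraries of unlike number were not compared, so these values cannot decide whether the numbers pair the samples. With the replicate block the counts were 0 and 0 of 60 changed, 0 interactions, and 0, 1 and 1 rhythms in the same order, as without it. No member passed an exercise contrast, so leaving out single libraries of such a contrast was not run. Low-depth libraries limit the low members: Mccc1 had 16 reads in the lowest.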
